A study of Mus musculus with 16 samples.

Results

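The genes examined were 10 neutrophil genes in bulk RNA of mouse hamstring muscle. They were taken by gene symbol from a table of 26382 genes as 5 markers of mature neutrophils (*S100a8*, *S100a9*, *Csf3r*, *Retnlg* and *Ly6g*), 3 genes of the secondary granules (*Ngp*, *Camp* and *Ltf*) and 2 genes of the primary granules (*Mpo* and *Elane*). All 10 were present in the table. Muscle came from female C57BL/6 mice of 8 to 10 weeks and was collected 14 days after intramuscular injection of recombinant histidyl-tRNA synthetase (HRS, also called Jo-1), the autoantigen of the anti-synthetase syndrome, or of PBS, the vehicle. The 16 libraries of 9 mice formed 4 groups. HRS legs were the left legs of 5 mice (m862 to m866), for which the treatment label gives HRS at 3 to 5 mg/mL, and contralateral PBS legs were the right legs of the same 5 mice. PBS-only legs were both legs of 2 mice (m867 and m868), so that these 4 libraries are not 4 independent animals. HRS-MBP libraries were 1 library each of 2 mice (m860 and m861) whose titles name an MBP fusion of the antigen at 2 to 3 mg/mL, with no leg stated. The written protocol describes injection of 100 μL in total divided between both hamstrings, whereas the titles place antigen in the left leg only of m862 to m866, and the titles were followed here. Genotype was given as C57BL/6 for every library, with no transgene and no deletion.

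Neutrophils are short-lived granulocytes that mature in the bone marrow, enter the blood, and leave it for injured or infected tissue. Their granules are filled in sequence during maturation, with primary (azurophil) granule proteins such as myeloperoxidase and neutrophil elastase transcribed in promyelocytes, secondary (specific) granule proteins such as lactoferrin, cathelicidin and neutrophilic granule protein transcribed in myelocytes and metamyelocytes, and S100A8 and S100A9 transcribed abundantly up to the mature cell. Transcripts of primary granule genes are therefore usually taken as a sign of immature cells, and the G-CSF receptor, encoded by *Csf3r*, is carried by neutrophils and by some monocytes.

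In muscle, *S100a8*, *S100a9*, *Csf3r*, *Retnlg*, *Ngp*, *Camp* and *Mpo* were called higher in HRS legs than in contralateral PBS legs, by 1.41 to 4.19 on the log2 scale, in a comparison in which 16.9% of all tested genes were. The call of *Mpo* was lost with mouse as a block (adjusted p = 0.054, limma). For *S100a8*, *S100a9*, *Ngp*, *Camp* and *Mpo*, 4 of the 5 HRS legs lay above every contralateral PBS leg, for *Elane* 3 and for *Ltf* 2. In the HRS leg of m866 these 7 genes lay within the range of the contralateral PBS legs, while *Csf3r* and *Retnlg* lay above it. *Ngp*, *Camp* and *Mpo* were at lower levels per kb of exon than *S100a8* and *S100a9*, and no member was called between the contralateral PBS legs and the PBS-only legs. In bulk RNA, fewer cells of a type cannot be told apart from less RNA per cell.

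Values are normalized counts as deposited by the authors, that is, read numbers scaled by a factor of each library, with no length correction. The positions below are those of GENCODE M21 (build GRCm38), in which all 10 genes were protein coding. *S100a8* (ENSMUSG00000056054.9) lay on the plus strand of chr3:90668978-90670035, and *S100a9* (ENSMUSG00000056071.12), its neighbour and the gene of its partner in the calprotectin dimer, on the minus strand of chr3:90692632-90695721. *Csf3r* (ENSMUSG00000028859.14) occupied chr4:126024550-126044440, *Retnlg* (ENSMUSG00000022651.6), a gene of the resistin-like family, chr16:48872621-48874496, and *Ly6g* (ENSMUSG00000022582.4), which encodes the antigen of a widely used antibody against mouse neutrophils, chr15:75155240-75159126, all on the plus strand. The 3 secondary granule genes shared chromosome 9, with *Camp* (ENSMUSG00000038357.10) at chr9:109847379-109849617 on the minus strand, *Ngp* (ENSMUSG00000032484.8) at chr9:110419747-110423012 on the plus strand and *Ltf* (ENSMUSG00000032496.7) at chr9:111019271-111042767 on the plus strand. *Elane* (ENSMUSG00000020125.7) lay at chr10:79886247-79888215 and *Mpo* (ENSMUSG00000009350.13) at chr11:87793581-87804413, both on the plus strand. Values refer to whole genes and not to single exons or UTRs.

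Because several members moved together, their promoters were searched for letters that resemble the sites of factors used in granulocytes. RefSeq promoter windows of 300 bases (250 before to 50 after the start, GRCm38.p6) were matched for all 10 genes, in 11 windows, of which 2 overlapping windows belong to *Ly6g*. The C/EBP-like letters TTGCNNAA, on either strand, were found in 5 of the 11 windows and in 10.8% of 32851 mouse promoter windows of the same length. The PU.1-like letters GAGGAAG, on either strand, were found in 6 of the 11 windows, which belong to 5 genes, and in 13.6% of all windows. The 5 sequences below were chosen because the values turn on these genes. They are printed from 5′ to 3′ in lower case, with matches to either motif in capitals.
S100a9 promoter, chr3:90695672-90695971, minus strand: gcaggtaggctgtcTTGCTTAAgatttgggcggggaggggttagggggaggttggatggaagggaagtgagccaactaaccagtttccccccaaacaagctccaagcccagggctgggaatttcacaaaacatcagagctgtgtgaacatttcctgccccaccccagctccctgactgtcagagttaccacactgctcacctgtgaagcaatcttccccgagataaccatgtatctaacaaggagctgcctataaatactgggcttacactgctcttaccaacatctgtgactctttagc
Ngp promoter, chr9:110419558-110419857, plus strand: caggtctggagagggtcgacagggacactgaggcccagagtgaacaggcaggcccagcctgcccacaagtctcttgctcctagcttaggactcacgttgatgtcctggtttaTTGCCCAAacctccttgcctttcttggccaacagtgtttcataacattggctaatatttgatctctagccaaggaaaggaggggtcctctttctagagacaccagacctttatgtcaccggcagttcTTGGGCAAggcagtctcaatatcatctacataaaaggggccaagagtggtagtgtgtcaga
Ltf promoter, chr9:111019042-111019341, plus strand: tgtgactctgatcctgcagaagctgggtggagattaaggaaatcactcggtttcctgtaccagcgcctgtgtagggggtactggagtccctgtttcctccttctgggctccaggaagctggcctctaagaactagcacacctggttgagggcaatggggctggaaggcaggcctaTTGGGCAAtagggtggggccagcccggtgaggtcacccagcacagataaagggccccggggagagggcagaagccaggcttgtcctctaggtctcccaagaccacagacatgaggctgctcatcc
Mpo promoter, chr11:87793534-87793833, plus strand: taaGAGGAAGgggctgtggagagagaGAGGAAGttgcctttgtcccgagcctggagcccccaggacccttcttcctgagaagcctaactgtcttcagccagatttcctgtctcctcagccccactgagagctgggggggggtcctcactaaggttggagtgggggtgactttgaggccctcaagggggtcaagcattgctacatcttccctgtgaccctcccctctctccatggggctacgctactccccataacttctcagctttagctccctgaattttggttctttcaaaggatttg
Csf3r promoter, chr4:126024409-126024708, plus strand: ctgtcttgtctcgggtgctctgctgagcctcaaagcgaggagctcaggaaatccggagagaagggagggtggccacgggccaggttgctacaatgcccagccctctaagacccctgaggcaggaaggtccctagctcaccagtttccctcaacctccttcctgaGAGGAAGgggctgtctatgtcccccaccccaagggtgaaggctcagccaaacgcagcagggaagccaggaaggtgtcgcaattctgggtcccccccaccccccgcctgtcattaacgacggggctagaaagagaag
The window of *S100a9* held 1 C/EBP-like match, beginning 236 bases before the start, that of *Ngp* held 2, and that of *Ltf* held 1. The windows of *Mpo* and *Csf3r* held no C/EBP-like match and held 2 and 1 PU.1-like matches, respectively. *Camp* had neither in its window. A match describes these letters only, and binding was not measured.

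Depth and composition differed between libraries. The step between low values gave an implied depth, in units of 1e+06 reads, of 37.3 to 73.9 in HRS legs, 24.7 to 72.8 in contralateral PBS legs, 8.60 to 40.7 in PBS-only legs and 37.3 and 39.6 in HRS-MBP libraries. A count of 0 was compatible with up to 3 reads, a floor between 0.0324 and 0.364 normalized counts, and the highest floor was that of m868, right leg, a PBS-only animal. The 6 skeletal muscle markers were abundant in all libraries, with a summed level between 34568 and 163000, and the lowest sum was that of the HRS leg of m864. Among HRS legs, m866 stood apart, with a muscle sum of 142014 against 34568 to 84400 in the other 4 and a mitochondrial share of 11.1% against 3.41% to 6.29%. Several sequencing platforms are named for the series without assignment to libraries, so that batches could not be compared.

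*S100a8* and *S100a9* encode the subunits of calprotectin, an abundant cytosolic protein of neutrophils that binds zinc and calcium. *S100a8* measured 4.72, 16.4, 21.7, 9.22 and 0.343 normalized counts in the HRS legs of m862, m863, m864, m865 and m866, respectively. The PBS legs of these mice, in the same order, had *S100a8* at 0.0961, 0.132, 0.369, 0.294 and 0.188, and in the PBS-only legs it measured 0.0284 and 0.243 in m867 and 0.121 and 0.326 in m868. Thus 4 HRS legs lay above every PBS leg, and the HRS leg of m866 lay above the PBS-only legs but within the contralateral range. The log2 fold change was 3.29 ± 0.64 (SE, n = 5 and 5, adjusted p = 8.0e-04, limma with Benjamini-Hochberg adjustment) against contralateral PBS legs. Against PBS-only legs it was 3.37 ± 0.68 (SE, n = 5 and 4, adjusted p = 9.3e-04, limma), a call that was lost with limma voom on implied reads (adjusted p = 0.10).

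*S100a9* had the same profile. It measured 7.92, 23.4, 27.5, 10.8 and 0.374 in the HRS legs of m862 to m866, and 0.0641, 0.214, 0.508, 0.147 and 0.108 in their PBS legs. In the PBS-only legs it lay between 0.0568 and 0.261. Again only the HRS leg of m866 overlapped with the contralateral PBS legs. The log2 fold change of *S100a9* was 3.68 ± 0.70 (SE, adjusted p = 6.5e-04, limma) against contralateral PBS legs. Because 0.5 was added before taking logarithms, such fold changes understate changes from low levels. In reads pooled over each group, *S100a9* had 4869 reads in HRS legs and 35 in contralateral PBS legs, a depth-corrected ratio of 84.3 (95% exact binomial interval 60.5 to 121, counting error only), which lay between 67.1 and 108 when any 1 of the 10 libraries was left out. For *S100a8* the ratio was 60.4 (43.5 to 86.3), and it lay between 48.9 and 70.7 with 1 library left out. *S100a9* was 1.68, 1.43, 1.27, 1.17 and 1.09 times *S100a8* in the HRS legs of m862 to m866, and 1.35 and 0.940 times in m860 and m861. In PBS libraries, with 1 to 13 reads of either gene, the ratio ran from 0.50 to 2.0, and that of m866 rests on 12 and 11 reads.

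*Csf3r*, which encodes the receptor of the granulocyte growth factor G-CSF, separated HRS legs from PBS legs without overlap. It measured 22.8, 31.3, 63.1, 26.6 and 9.06 in the HRS legs of m862 to m866, against 0.769, 0.791, 1.99, 0.823 and 0.619 in their PBS legs. In PBS-only legs it measured 0.424 and 0.849 in m867 and 1.58 and 1.37 in m868. Every HRS leg, m866 included, was above every PBS leg. The same held for 18.3% of all tested genes against contralateral PBS legs and for 26.6% against PBS-only legs. The log2 fold change was 4.19 ± 0.39 (SE, adjusted p = 2.1e-06, limma) against contralateral PBS legs and 4.14 ± 0.41 (SE, adjusted p = 2.9e-06, limma) against PBS-only legs. On this scale, with 0.5 added, it had the largest fold change of the 8 tested members. In pooled reads, where nothing is added, its ratio of 35.7 (30.6 to 41.8) was below those of *S100a8* and *S100a9*.

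*Retnlg* was the other member without overlap between HRS legs and contralateral PBS legs, a trait of 18.3% of all tested genes. It lay between 0.436 (m866) and 2.80 (m864) in HRS legs, with a median of 1.34, between 0 and 0.165 in contralateral PBS legs, and between 0.0284 and 0.121 in PBS-only legs. The PBS values rest on few reads, 14 in total over the 5 contralateral legs, of which 10 were in m863. *Retnlg* rose by a log2 fold change of 1.73 ± 0.25 (SE, adjusted p = 7.2e-05, limma) against contralateral PBS legs.

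*Ly6g* was too low for the test across genes, which required a mean of 0.5 normalized counts over the 16 libraries. Its 47 reads in HRS legs were distributed as 4, 25, 12, 6 and 0 in m862 to m866, and the HRS-MBP libraries held 1 and 2 reads. No PBS library held a read. The pooled level was at least 9.49-fold higher in HRS legs than the floor of 3 reads over the contralateral PBS group, and at least 6.37-fold without the PBS leg of m863, which was the deepest. An exact permutation test of the 5 against 5 libraries gave an unadjusted two-sided p = 0.048, 1 of 50 such tests computed over members and comparisons.

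**Figure D1:**
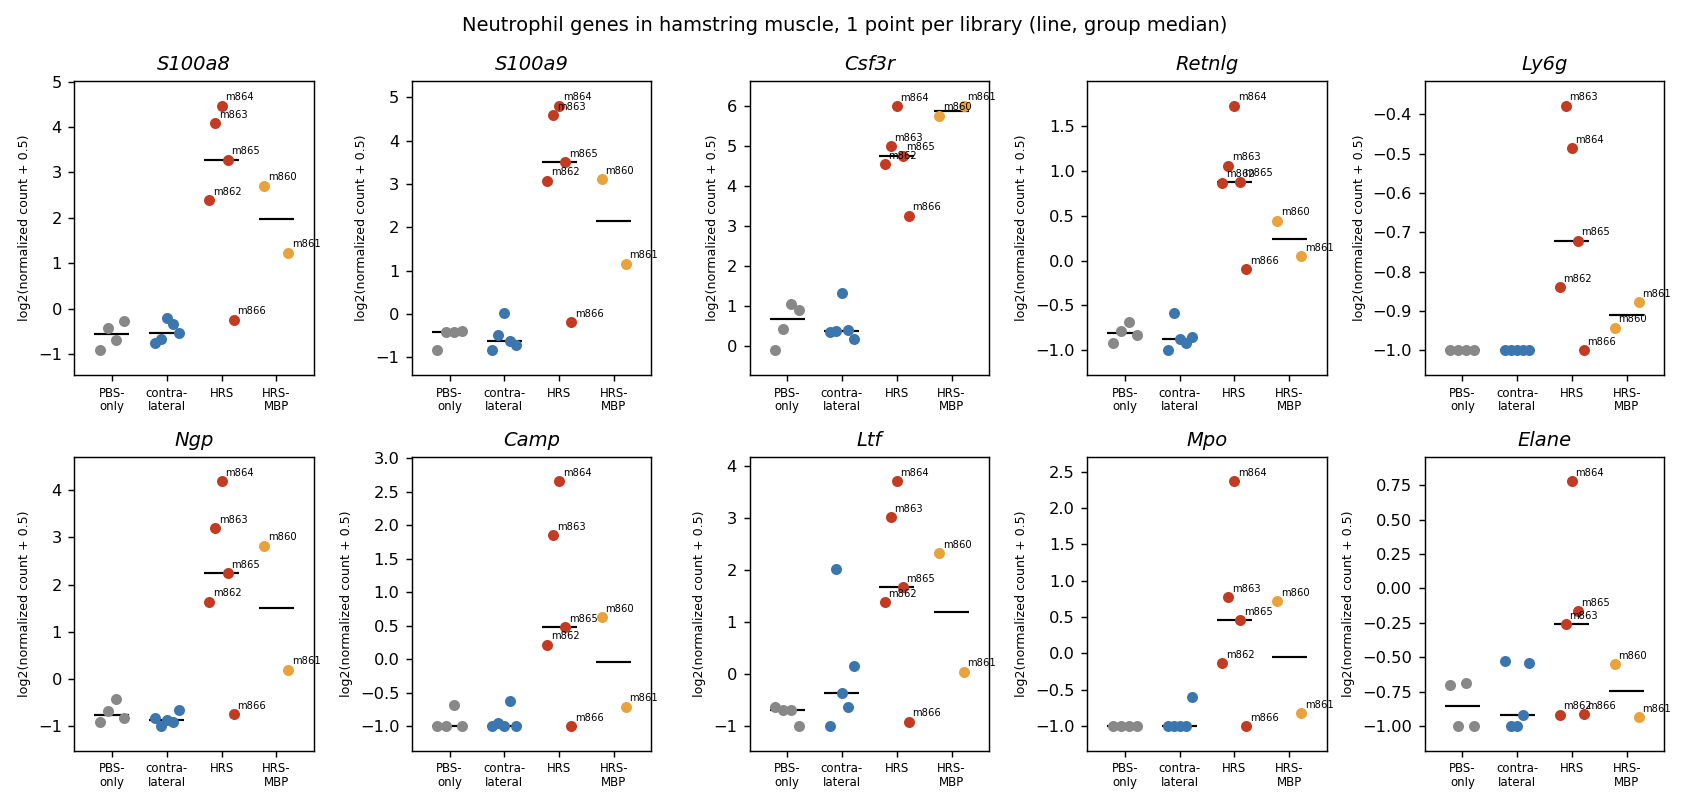
Normalized counts of the 10 genes in 16 libraries, as log2(normalized count + 0.5) on the vertical axis of each panel, by group; points are libraries, horizontal lines are group medians, and mouse numbers mark the HRS and HRS-MBP libraries. The HRS leg of m866 lies within the range of the contralateral PBS legs for *S100a8*, *S100a9* and the granule genes and above it for *Csf3r* (9.06 normalized counts) and *Retnlg* (0.436).

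Of the secondary granule genes, *Ngp* and *Camp* were raised in the same legs as *S100a8* and *S100a9*. *Ngp*, which encodes a granule protein related to the cathelicidins, measured 2.60, 8.66, 17.8, 4.22 and 0.0935 in the HRS legs of m862 to m866. In contralateral PBS legs *Ngp* lay between 0 and 0.135 and in PBS-only legs between 0.0284 and 0.243, which is 16 reads over all 9 PBS libraries. The HRS leg of m866 held 3 reads and lay within the range of the contralateral PBS legs, whereas the other 4 held 177 to 994 reads. *Ngp* rose by a log2 fold change of 2.96 ± 0.68 (SE, adjusted p = 0.0022, limma) against contralateral PBS legs and by 2.82 ± 0.72 (SE, adjusted p = 0.0042, limma) against PBS-only legs. Both calls were lost with limma voom on implied reads (adjusted p = 0.076 and 0.16).

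*Camp*, the gene of the antimicrobial peptide precursor cathelicidin, measured 0.661, 3.10, 5.81, 0.890 and 0 in the HRS legs of m862 to m866. It lay between 0 and 0.147 in contralateral PBS legs and between 0 and 0.121 in PBS-only legs. The HRS legs other than m866 were above every PBS leg, and its log2 fold change against contralateral PBS legs was 1.76 ± 0.50 (SE, adjusted p = 0.0077, limma). This call was lost with limma voom on implied reads (adjusted p = 0.075). Relative to *Ngp*, *Camp* was at 0.254, 0.358, 0.327 and 0.211 of the *Ngp* level in m862 to m865.

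*Ltf*, the gene of the iron-binding protein lactoferrin, was the tested member that did not pass the threshold against contralateral PBS legs. It measured 2.10, 7.58, 12.5, 2.67 and 0.0312 in the HRS legs of m862 to m866 and 0, 3.54, 0.277, 0.147 and 0.619 in their PBS legs. The PBS leg of m863 held 215 *Ltf* reads, more than the HRS legs of m862 and m865, although it held 0 reads of *Ngp*, 1 of *Camp* and 0 of *Mpo*. The same PBS leg had 3.16 normalized counts of *Lcn2*, which encodes another secondary granule protein, against 0.559 to 1.91 in the other contralateral legs. However, the summed level of the 8 other secondary granule genes, *Lcn2* included, was lowest in this leg. That sum was 21.5, against 25.7 to 115 in the other contralateral legs, where *Hp* alone reached up to 112. The source of these *Ltf* reads was not tested. The log2 fold change of *Ltf* was 1.73 ± 0.74 (SE, adjusted p = 0.054, limma) against contralateral PBS legs. Without the PBS leg of m863 it was 2.23 (adjusted p = 0.017, limma) and without the HRS leg of m866 2.40 (adjusted p = 0.0025, limma). The PBS-only legs lay between 0 and 0.142, and against them *Ltf* rose by 2.52 ± 0.79 (SE, adjusted p = 0.013, limma). The call was lost with both legs of each PBS-only animal averaged (adjusted p = 0.067, limma).

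Primary granule transcripts rested on fewer reads. *Mpo*, the gene of myeloperoxidase, measured 0.412, 1.21, 4.66, 0.872 and 0 in the HRS legs of m862 to m866, which is 28, 112, 261, 49 and 0 reads. Of the 9 PBS libraries, 8 held no read, and the PBS leg of m866 held 6. The 4 HRS legs with reads were above all PBS legs. *Mpo* rose by a log2 fold change of 1.41 ± 0.46 (SE, adjusted p = 0.015, limma) against contralateral PBS legs. With mouse as a block the adjusted p was 0.054, and without the HRS leg of m864 the log2 fold change was 0.94 (adjusted p = 0.029, limma), under the required 1. Against PBS-only legs, which held no read, the pooled level was at least 41.1-fold higher, and at least 21.1-fold without the HRS leg of m864.

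*Elane*, the gene of neutrophil elastase, did not pass the filter and was less clearly separated. It held 2, 31, 68, 22 and 1 reads in the HRS legs of m862 to m866, or 0.0294 to 1.21 normalized counts, and 0 to 7 reads in contralateral PBS legs, or 0 to 0.192. The HRS legs of m863, m864 and m865 lay above all PBS legs, and those of m862 and m866 did not. An exact permutation test against contralateral PBS legs gave an unadjusted p = 0.17.

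**Figure D2:**
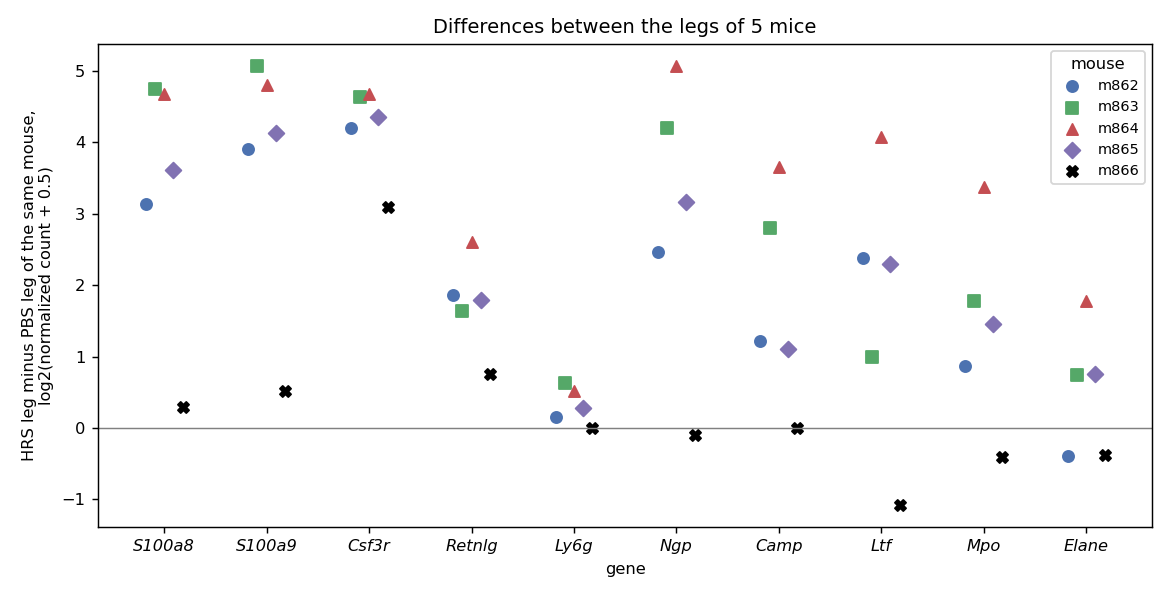
Difference between the HRS leg and the PBS leg of the same mouse for each of the 10 genes, on the scale of log2(normalized count + 0.5); each symbol is 1 of the 5 mice and the line marks no difference. All 5 mice lie above 0 for *S100a8*, *S100a9*, *Csf3r* and *Retnlg*, and m866 is at or below 0 for the granule genes and at 0 for *Ly6g*.

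Within mice, the antigen side exceeded the PBS side in 5 of 5 animals for *S100a8*, *S100a9*, *Csf3r* and *Retnlg*, for *Ngp*, *Camp*, *Ltf*, *Mpo* and *Ly6g* in 4 of 5, and for *Elane* in 3 of 5, with -0.39 in m862 and -0.37 in m866 on the log2 scale. In m866 the differences on the log2 scale were 0.29 for *S100a8*, 0.52 for *S100a9*, 3.09 for *Csf3r* and 0.76 for *Retnlg*, against -0.10 for *Ngp*, -1.08 for *Ltf* and -0.40 for *Mpo*. In the other 4 mice, *S100a9* differed by 3.90 to 5.07 and *Csf3r* by 4.20 to 4.68. An exact sign-flip test over 5 mice cannot go below p = 0.0625, which was the value of each gene that was higher in 5 of 5 mice.

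In the comparison across genes, 8 of the 10 members passed the filter, and 7 of these 8 were called higher in HRS legs than in contralateral PBS legs, that is, with an adjusted p under 0.05 and a log2 fold change over 1. Among all 16414 tested genes, 16.9% were called higher. Against PBS-only legs, 8 of 8 were called higher, against 18.9% of all tested genes. The 2 comparisons share the HRS legs. Every HRS leg was above every contralateral PBS leg for 2 of the 10 members (*Csf3r* and *Retnlg*), and for 18.3% of tested genes. Every HRS leg was above every PBS-only leg for 4 members (*S100a8*, *S100a9*, *Csf3r* and *Retnlg*), and for 26.6% of tested genes. With both libraries of m866 left out, 8 of 8 tested members were called against contralateral PBS legs. With limma voom on implied reads, which weighs low values differently, the fitted log2 fold changes were larger and less certain (*Ngp* 6.47 with adjusted p = 0.076, *Camp* 5.18 with 0.075 and *Mpo* 4.92 with 0.057 against contralateral PBS legs, and *S100a8* 5.68 with 0.10 against PBS-only legs), and the calls fell to 4 (*S100a8*, *S100a9*, *Csf3r* and *Retnlg*) against contralateral PBS legs and to 2 (*Csf3r* and *Retnlg*) against PBS-only legs, and averaging the legs of each PBS-only animal left 5 of 8 against PBS-only legs, without *Camp*, *Ltf* and *Mpo*. The median log2 fold change of the tested mature members was 3.49 and that of the tested granule members 1.74, against 0.08 over all tested genes, with 0.5 added before taking logarithms. The pooled read ratios, without that addition, did not separate the classes, at 149 for *Ngp* (95% interval 78.3 to 326), 71.4 for *Camp* (32.6 to 195), 45.4 for *Mpo* (20.7 to 124), 4.13 for *Ltf* (3.61 to 4.73) and 5.36 for *Elane* (3.08 to 10.1) among granule genes, and at 84.3 for *S100a9*, 60.4 for *S100a8*, 35.7 for *Csf3r* and 20.9 for *Retnlg* (12.3 to 38.4) among mature markers. These ratios rest on few PBS reads, and 1 library moved several of them, with *Ngp* at 268 without the PBS leg of m866, *Camp* at 349 without that of m865, *Retnlg* at 49.0 and *Ltf* at 20.3 without that of m863 and *Elane* at 8.57 and *Mpo* at 72.6 without that of m866. Without the HRS leg of m864, *Camp* was at 47.2, *Mpo* at 23.4 and *Elane* at 2.97. No test was made over the members because they were chosen with earlier results known.

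**Figure D3:**
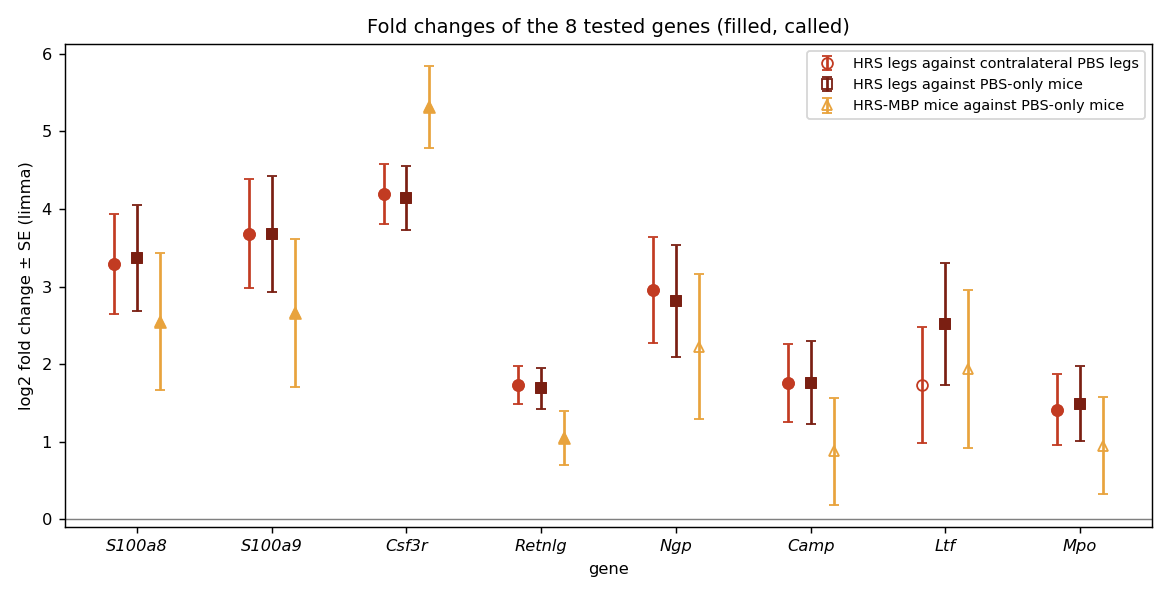
Fold changes of the 8 tested genes in 3 comparisons, as log2 fold change with its SE from limma on the vertical axis; filled symbols passed the threshold and open symbols did not. On this scale *Csf3r* has the highest value in each comparison, from 4.14 to 5.31, and *Ltf* against contralateral PBS legs (1.73) is open.

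The members did not differ detectably between contralateral PBS legs and PBS-only legs. Of the 8 tested members, 0 were called by limma, against 0.00609% of all tested genes. At an unadjusted p under 0.05 (limma) there were 0 of these 8, against 902 of the 16414 tested genes. The largest difference of a member was that of *Ltf*, at a log2 fold change of 0.79 ± 0.79 (SE, unadjusted p = 0.33, limma), with 4 of the 5 contralateral legs above every PBS-only leg. *S100a8* averaged 0.216 ± 0.114 (SD, n = 5) in contralateral PBS legs and 0.180 ± 0.131 (SD, n = 4) in PBS-only legs. These levels rest on 1 to 10 reads a library, so that differences of a few reads were not detectable at this depth.

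The 2 HRS-MBP libraries differed from each other. *S100a8* measured 6.03 and 1.85 in m860 and m861, *S100a9* 8.15 and 1.73, and *Csf3r* 53.5 and 63.9. *Csf3r* in m861 was the highest of all 16 libraries, slightly above the HRS leg of m864. The granule genes were higher in m860 than in m861, with 6.60 and 0.645 for *Ngp*, 1.04 and 0.111 for *Camp*, 4.50 and 0.534 for *Ltf*, and 1.14 and 0.0667 for *Mpo*. As a fraction of the m860 level, m861 had 0.306 of *S100a8*, 0.213 of *S100a9*, 0.622 of *Retnlg*, 0.0977 of *Ngp*, 0.107 of *Camp*, 0.119 of *Ltf* and 0.0585 of *Mpo*, but 1.19 of *Csf3r*. On the log2 scale, 0.15% of the 16414 tested genes fell further from m860 to m861 than *Ngp*, and 0.32% fell further than *S100a9*. These are single libraries of 2 animals, and *Mpo* in m861 rested on 3 reads, the floor.

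Compared with PBS-only legs, 4 of the 8 tested members were called higher in HRS-MBP libraries, against 20.7% of tested genes. *Csf3r* rose by 5.31 ± 0.53 (SE, n = 2 and 4, adjusted p = 3.4e-06, limma), *S100a9* by 2.66 ± 0.96 (SE, adjusted p = 0.027, limma), *S100a8* by 2.55 ± 0.88 (SE, adjusted p = 0.023, limma) and *Retnlg* by 1.05 ± 0.34 (SE, adjusted p = 0.017, limma). The granule genes were not called, and the log2 fold change of *Ngp* was 2.23 ± 0.94 (SE, adjusted p = 0.053, limma). That of *Ngp* was close to the threshold and was called with a smaller pseudocount (3.33, adjusted p = 0.030), with scaling to the library total (adjusted p = 0.049), without m861 (3.54, adjusted p = 0.026), and without the HRS leg of m864 (adjusted p = 0.028) or of m866 (adjusted p = 0.0060), which enter through the shared spread. *Ltf* was called without the HRS leg of m866 (adjusted p = 0.041), all by limma, so that these data do not divide mature from granule genes here. Both HRS-MBP libraries were above every PBS-only leg for 7 of the 8 tested members, against 39.8% of tested genes, although *Mpo* had 3 reads in m861 against 0 in PBS-only legs, which is at the floor. Without m860, which leaves 1 HRS-MBP library whose spread is taken from the other groups, 1 member (*Csf3r*) was called, and the log2 fold changes were 1.81 for *S100a8*, 1.68 for *S100a9* and 0.85 for *Retnlg*. The same 3 calls were lost with both legs of each PBS-only animal averaged, which counts the 4 legs as 2 mice (adjusted p = 0.071 for *S100a8*, 0.082 for *S100a9* and 0.053 for *Retnlg*, limma). An exact permutation test of 2 against 4 libraries cannot go below p = 0.13.

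Directly against HRS legs, no member was called in HRS-MBP libraries by limma, and 0.463% of tested genes were called in either direction. Of the 8 tested members, 1 had an unadjusted p under 0.05, as did 2371 of the 16414 tested genes, a share no lower than that of the members. It was *Csf3r*, with a log2 fold change of 1.17 ± 0.51 (SE, unadjusted p = 0.037, adjusted p = 0.32, limma). *S100a8* and *S100a9* had log2 fold changes of -0.83 ± 0.85 and -1.02 ± 0.93 (SE, adjusted p = 0.68 and 0.63, limma), so that neither direction nor equality was established. The antigen concentrations of the 2 groups also differed.

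Levels of different genes were compared per kb of exon, using the union of exons in GENCODE M21. Across HRS legs the median level per kb was 20.7 for *S100a9*, 13.3 for *S100a8*, 7.37 for *Csf3r*, 3.45 for *Ngp*, 2.25 for *Retnlg*, 1.17 for *Camp*, 0.774 for *Ltf*, 0.340 for *Elane*, 0.255 for *Mpo* and 0.113 for *Ly6g*. The mature markers other than *Ly6g* were thus above the primary granule genes, and the ranges of neighbouring genes in this order overlapped. In the HRS leg of m864, *S100a9* was at 52.8 and *Csf3r* at 17.5 per kb. In m861, by contrast, *S100a9* was at 3.32 and *Csf3r* at 17.7 per kb.

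The proportion of granule to mature transcripts was not constant. Per kb, the sum of *S100a8* and *S100a9* was 5.84, 4.87, 2.96 and 5.61 times the sum of the 5 granule genes in the HRS legs of m862 to m865, and 2.83 and 6.87 times in m860 and m861. The leg with the highest level of all members except *Ly6g*, that of m864, had the highest share of granule transcripts among HRS legs. *Mpo* was 0.0519, 0.0515, 0.169 and 0.0807 of *S100a9* in m862 to m865, and 0.140 and 0.0385 in m860 and m861, in normalized counts. With all 5 mature members, the mature sum was a median 5.31 times the granule sum over HRS legs, and 7.22 times per kb. Without length correction it ran from 2.75 times in m864 to 65.6 times in m866, and was 5.09 and 49.4 times in m860 and m861. The high ratios of m866 and m861 rest mainly on *Csf3r*. It made up 9.06 of the mature sum of 10.2 in m866 and 63.9 of 68.1 in m861. In m860 it was 53.5 of 68.6, and in m864 63.1 of 115. In m866, whose HRS leg held 5 granule reads in all, the sum of *S100a8* and *S100a9* per kb was 10.3 times the granule sum.

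The order of the HRS legs was shared. For 8 of the 10 members the legs ranked m864, m863, m865, m862 and m866 from high to low, an order that 8.93% of the tested genes also had. The exceptions were *Ly6g* and *Elane*. This order is the one that the members themselves showed, so that their count describes them and is not a test against that share. The macrophage and monocyte markers had the same order in their summed level, with 6221, 4074, 3145, 2818 and 1230 normalized counts. The range within that order differed between members. The level of the HRS leg of m866 was 0.0267 of the median of the other 4 HRS legs for *S100a8*, 0.0219 for *S100a9*, 0.0145 for *Ngp* and 0.00608 for *Ltf*, but 0.313 for *Csf3r* and 0.300 for *Retnlg*. *Lyz2*, the gene of a lysozyme of macrophages and neutrophils, was at 0.323. In m866 *Ngp* had 3 reads and *Ltf* 1 read, at or below the floor of 3 reads, so that their fractions cannot be ordered. On the log2 scale, 0.14% of tested genes were further below the other HRS legs in m866 than *S100a9*, and 3.92% were further below than *Csf3r*.

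Over the 16 libraries, the genes whose log2 values were most like those of the members fell into different sets. *S100a8* was most like *S100a9* (Pearson r = 0.995), *Mmp8* (r = 0.985) and *Ngp* (r = 0.979). *Mmp8* encodes neutrophil collagenase, a secondary granule protein. *Csf3r* was most like *F10* (r = 0.996), *Slamf7* (r = 0.994) and *Adgre4* (r = 0.994), and no other member was among its nearest 3. *Retnlg* was most like *Cxcl5* (r = 0.974), *Cd177* (r = 0.973) and *Clec4n* (r = 0.970). *Mpo* and *Camp* were most like each other (r = 0.965), while *Ltf* was most like *Ptn*, *Itga2b* and *Dnajb14*, at r of 0.904 to 0.913. These values describe likeness over 16 libraries that differ in depth and treatment, and they carry no test.

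**Figure D4:**
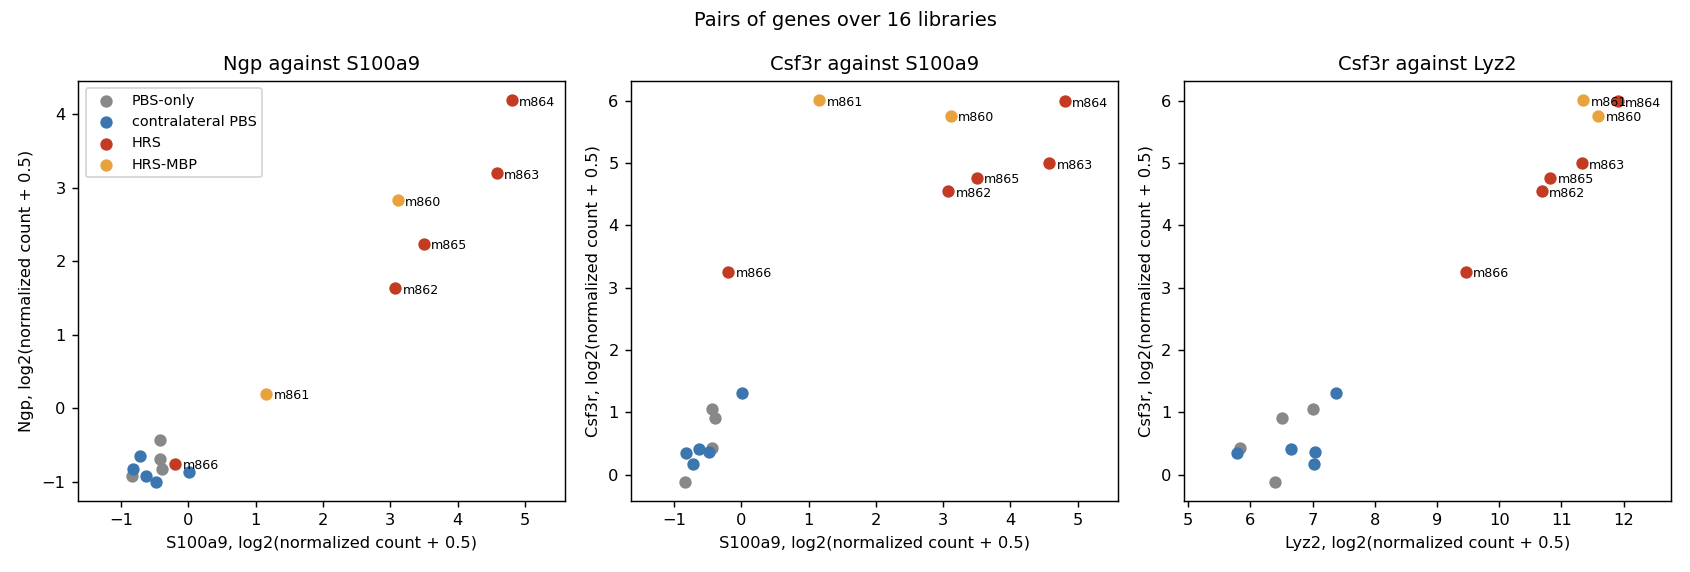
*Ngp* against *S100a9*, *Csf3r* against *S100a9* and *Csf3r* against *Lyz2* in 16 libraries, each axis as log2(normalized count + 0.5); colours give the 4 groups and mouse numbers mark HRS and HRS-MBP libraries. *Ngp* and *S100a9* fall together in m861 and m866, whereas *Csf3r* in m861 (63.9 normalized counts) and m866 (9.06) lies far above the PBS libraries. *Csf3r* was 1.28% of *Lyz2* in the HRS leg of m866 and 1.22% to 1.64% in the other HRS legs. It was 1.73% in m860 and 2.45% in m861.

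Other genes of neutrophils were taken from lists that had been written down with earlier results of these data known. Of 14 other markers of mature neutrophils, 13 were in the table and 10 were tested. Against contralateral PBS legs 8 of these 10 were called higher and 0 lower, where 16.9% of all tested genes were called higher. Their median on the log2 scale was 1.92, against 0.08 over all tested genes. The largest rise was that of *Clec4d*, a C-type lectin of myeloid cells, at 5.11 (adjusted p = 1.6e-06, limma), which measured 9.01 in the HRS leg of m866, 30.3 to 69.4 in the other HRS legs, 41.0 in m860 and 71.3 in m861. *Clec4d* thus resembled *Csf3r* in m866 and m861. In contrast, *Cxcr2*, the receptor through which neutrophils follow CXC chemokines, had 4 reads in the HRS leg of m866. It lay at 1.46 to 3.36 in the other HRS legs, a difference of the kind seen for *S100a8* and *S100a9*. *Cxcr2* was picked after its values were seen and was not typical of its list. Its level in m866 was 0.0471 of the median of the other HRS legs. The other tested genes of the list ran from 0.161 (*Asprv1*) to 1.503 (*Wfdc21*) of that median. In m860 and m861 *Cxcr2* was at 0.876 and 0.867, without the fall of *S100a8* and *S100a9* between these libraries.

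Of 8 other secondary granule genes, 6 were tested and 6 were called higher in HRS legs than in contralateral PBS legs, where 16.9% of all tested genes were. The largest rise was that of *Chil3*, a chitinase-like gene of neutrophils and alternatively activated macrophages, with a log2 fold change of 2.98 (adjusted p = 1.7e-06, limma). *Chil3* measured 2.06 in the HRS leg of m866, above all PBS legs, where it was at most 0.243. Of 6 other primary granule and precursor genes, 2 were tested, and 1 of them, *Gfi1*, a transcriptional repressor of granulocyte precursors and lymphocytes, was called higher, at 1.196 (adjusted p = 0.0030, limma). *Prtn3*, the gene of proteinase 3, missed the threshold against contralateral PBS legs, with a log2 fold change of 0.31 (adjusted p = 0.45, limma), and was called higher against PBS-only legs, at 1.15 (adjusted p = 0.013, limma).

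The ligands of the members' pathways were also measured. *Csf3*, the gene of G-CSF, was low, with at most 0.482 normalized counts in the HRS leg of m864 and 0 in the PBS-only legs, and did not pass the filter. Of 10 listed neutrophil growth factors and chemoattractants, 8 were in the table and 4 were tested, and 3 of these were called higher in HRS legs than in contralateral PBS legs, as were 16.9% of all tested genes. The largest rise was that of *Cxcl5*, a chemokine that attracts neutrophils, at 3.20 (adjusted p = 5.3e-05, limma). It measured 3.88, 10.1, 8.93, 6.34 and 0.592 in the HRS legs of m862 to m866. Its level was lowest in the leg of m866, and it was 1.85 and 1.78 in m860 and m861.

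Of the receptors described for S100A8 and S100A9, *Tlr4* rose by 1.71 (adjusted p = 7.9e-05, limma) against contralateral PBS legs and *Ager* by 1.249 (adjusted p = 0.0016, limma). *Cd36*, a fatty acid transporter that is abundant in muscle and its capillaries, had a log2 fold change of -0.48 and was not called (adjusted p = 0.077, limma). *Tlr4* lay between 6.89 and 17.3 in HRS legs and between 1.94 and 5.09 in contralateral PBS legs.

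Markers of other cells moved with the members. All 10 macrophage and monocyte markers were called higher in HRS legs than in contralateral PBS legs, with *Ly6c2* rising the most, at 4.14 (adjusted p = 5.8e-06, limma). Their summed level lay between 1230 and 6221 in HRS legs, at 5018 and 5409 in HRS-MBP libraries, and between 124 and 366 in the 9 PBS legs, and no marker was at 0 in all libraries of a group. All 4 T cell markers (with the largest rise in *Cd4*) and all 3 B cell markers (largest rise *Ms4a1*, at 1.56) were also called higher, in a comparison in which 16.9% of tested genes were. *Csf3r* is also expressed by monocytes, and the part of these cells in its level was not tested.

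Markers of blood were not higher in HRS legs. The 5 tested erythroid markers, hemoglobin genes included, had a median log2 fold change of -0.69 against contralateral PBS legs, and 4 of them had an adjusted p of 0.025 to 0.041 (limma) without reaching the fold threshold, with summed levels of 198 to 479 in HRS legs and 290 to 659 in contralateral PBS legs. Against PBS-only legs, where 5.87% of all tested genes were called lower, 2 were, *Alas2* at -1.08 and *Hba-a2* at -1.02 (adjusted p = 0.0043 and 0.0047, limma). The 4 markers of bone marrow B precursors passed no filter and summed to 0.132, 0.573, 0.768 and 0.392 in the HRS legs of m862 to m865, against 0.0924 to 0.135 in contralateral PBS legs. In PBS-only legs the sum was 0.849 in the right leg of m868, the shallowest library, with 6 reads of *Rag1*, and at most 0.0652 in the others. *Dntt* had 86 reads in HRS legs, 3 in contralateral PBS legs and 0 in PBS-only legs. The part of these markers in the granule values was not tested. No eosinophil marker passed the filter, their sums being at most 1.91 in HRS legs and 4.20 in HRS-MBP libraries. Of the 4 tested mast cell and basophil markers 0 were called. Of the 6 skeletal muscle markers 2 were called lower against contralateral PBS legs, as were 6.27% of all tested genes, *Ckm* the most, at -1.18 (adjusted p = 0.043, limma), and their sum was lowest in the HRS leg of m864, in which the members were highest. The part of this shift in muscle RNA in the levels of the members was not tested.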

How the data were processed

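Bulk RNA of mouse hamstring muscle was analysed in 16 libraries, grouped by the treatment, mouse and title given in the labels. The deposited values are the authors' normalized counts, handled as a non-negative signal rather than raw counts. The submitters' processing notes name STAR 2.7.8a, limma and the build GRCm39 (mm39), but of 25652 genes matched to GENCODE M21 (GRCm38) 98.9% had the same start and end, so positions are given in GRCm38. In each library 74.7% to 76.8% of the low values fell on whole steps (tolerance 0.02 of a step), and 149 of the 160 values of the 10 genes were, so the values are not raw counts and no negative binomial count test was applied. Implied reads (value divided by the step) were used for depth, for the floor, for pooled read ratios with exact binomial intervals and, as an alternative, for limma voom. Intervals at 95% and the floor of 3 reads cover counting error only. Strand use in counting is not stated, so reads of overlapping and related genes (*Ly6g* in the Ly6 family, for example) could not be told apart.

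Tests were run with limma 3.58.1 in R 4.3.3 (lmFit and eBayes, trend on) after adding 0.5 and taking log2, in 1 fit of 4 groups. Genes whose average was below 0.5 across the 16 libraries were dropped, leaving 16414. Calls required a Benjamini-Hochberg adjusted p under 0.05 over all tested genes and an absolute log2 fold change above 1. Exact permutation tests (two-sided) used scipy 1.17.1. HRS and contralateral PBS legs are paired by animal, per the labels. Across genes, the 2 legs of an animal deviated from their groups with a correlation of 0.12, 0.16, 0.097, -0.026 and -0.37 in m862 to m866, and the fit had no block. With mouse as a block, 6 of the 8 tested members were called (7 without). Nothing in the labels shows that PBS-only legs of 1 mouse are independent, so p-values there measure partly the spread between legs.

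The members and lists were chosen with earlier results of these data known. Genes were named by rule: all members, the largest called rise and fall of each list, known ligands and receptors, and the 3 genes most like each tested member. *Lcn2*, *Cxcr2*, *Prtn3* and *Lyz2* were chosen after their values were seen. Alternatives covered the pseudocount, the filter, scaling, limma voom on implied reads, the block, averaging of PBS-only legs, each library left out and m866 left out. Columns not used: 0.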

Additional observations from a re-analysis of the deposited data

Results flagged for a closer look

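Of 27 sets of values (10 genes in 3 groups of 4 or 5 libraries, leaving out sets with no spread), 8 had a single library whose gap to the nearest value was large relative to the range (Dixon's criterion at 95%). For normally distributed values chance would give about 1 in 20. That rate does not hold for low and skewed values such as these, so that 8 of 27 cannot be set against it. In HRS legs, *Mpo* in m864 stood apart at 4.66, against 1.21 in the next leg. In contralateral PBS legs, *Ltf* stood apart in m863 at 3.54 (215 reads), against 0.619 in the next leg, and *Csf3r* in m864 at 1.99, against 0.823. The other 5 rest on few reads. They were *Camp* in the PBS leg of m865 (0.147, 5 reads), *Mpo* in the PBS leg of m866 (0.162, 6 reads), *S100a9* in m867, right leg, PBS only (0.0568, 2 reads), *Camp* in the right leg of m868 (0.121, 1 read) and *Ltf* in the left leg of m868 (0, against 0.121 in the next).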

How the results depend on the processing

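The number of called members against contralateral PBS legs was 7 and lay between 6 and 8 when any 1 library was left out. It was 4 with a filter at a mean of 2, which left 5 members to test, 4 with limma voom on implied reads, and 5 with a pseudocount of 2 (*Retnlg*, *Camp* and *Mpo* lost, *Ltf* gained). With the replicate block (mouse) it was 6, since *Mpo* was lost (adjusted p = 0.054). Against PBS-only legs it was 8, with 8 also for any library left out, 5 with a pseudocount of 2, 5 with the filter at a mean of 2, 2 with voom (*Csf3r* and *Retnlg*) and 5 with both legs of a PBS-only animal averaged. In HRS-MBP libraries against PBS-only legs it was 4, between 1 and 6 with 1 library left out, 1 with a pseudocount of 2, 1 with quantile normalization, 2 with voom and 1 with averaged PBS-only legs. Between contralateral PBS legs and PBS-only legs, and between HRS-MBP libraries and HRS legs, it was 0 throughout. Of the refitted log2 fold changes of members, 640 kept direction and call, 35 lost the call, 13 gained it, and none of these changed sign. In the remaining members of the comparisons of contralateral PBS legs with PBS-only legs and of HRS-MBP libraries with HRS legs, none called, 26 of 172 and 3 of 117 refits changed sign. Scaling moved the median of all genes against contralateral PBS legs from 0.08 to -0.16 (quantile normalization) and to 0.45 (library total), and the numbers called higher and lower from 2781 and 1029 to 2093 and 1632, and to 4172 and 322. The causes were not tested. PBS levels of most members rest on fewer than 10 reads a library, which limits every fold change against them.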
